A study of Mus musculus with 6 samples.

Results

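The genes described here are 60 box C/D small nucleolar RNAs (snoRNAs) of the mouse, taken from the deposited count tables by symbol. They are all symbols made of Snord and a digit, of which the tables hold 74, except 14 (Snord2, Snord12, Snord22, Snord32a, Snord33, Snord34, Snord35a, Snord43, Snord47, Snord49a, Snord55, Snord83b, Snord99 and Snord110). The tables list 23420 genes in all. The rule names symbols and no values, although the 14 were set apart with earlier results of these data known. Of the 60, 50 had at least 1 read, 48 passed the filter on low counts and were tested, and 10 had no read in any library.

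The cells were NIH 3T3, an immortalised mouse fibroblast line. All of them, the cells of the input libraries included, had been transfected with the pEGFP-NXF3 plasmid, which makes NXF3, a protein of the nuclear export factor family, as a fusion with GFP. The 3 input libraries were made without an antibody, and the 3 NXF3 pulldown libraries were made from RNA recovered with an anti-GFP antibody on protein A beads. Per the labels' protocols the RNA came from 3 independent experiments, which the labels do not tie to the replicate numbers, and gel products of 30 to 375 nucleotides were sequenced. A pulldown from cells without the bait, and spike-in RNA, were not analysed here, so the comparison is between the composition of 2 kinds of library. The bait is overexpressed from a plasmid, and a level in these libraries does not measure RNA per cell.

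Box C/D snoRNAs carry a box C near the 5′ end and a box D near the 3′ end, which come together to bind fibrillarin, NOP56, NOP58 and a small core protein. The stretch just upstream of box D, or of the inner box D′, pairs with a target RNA, and fibrillarin methylates the ribose of the target base that pairs with a fixed letter of the guide. Most of them are cut from the introns of genes for ribosomal proteins, translation factors and nucleolar proteins, and their targets are mainly ribosomal RNA (rRNA) and the spliceosomal U6 RNA. NXF1, a relative of NXF3, exports messenger RNA from the nucleus.

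The sequences below show how guides of 3 target RNAs are built. Each is the GENCODE M21 model of the symbol, written 5′ to 3′ as DNA, with the stretch that is antisense to the target and ends 0 to 3 bases before a CTGA box in capitals. The first 3 are the U6 guides and the next 4 were chosen as abundant rRNA guides, some with shorter target stretches than members not shown: Snord96a for 5.8S rRNA and the others for 18S rRNA.
Snord7: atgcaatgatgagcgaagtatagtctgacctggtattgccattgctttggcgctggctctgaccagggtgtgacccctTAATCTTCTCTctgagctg
Snord8: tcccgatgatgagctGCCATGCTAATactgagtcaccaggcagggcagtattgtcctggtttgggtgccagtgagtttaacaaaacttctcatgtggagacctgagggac
Snord67: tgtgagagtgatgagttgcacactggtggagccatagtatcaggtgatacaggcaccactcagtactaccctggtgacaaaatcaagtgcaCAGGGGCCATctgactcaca
Snord96a: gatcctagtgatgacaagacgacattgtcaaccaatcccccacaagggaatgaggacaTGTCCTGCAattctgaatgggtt
Snord57: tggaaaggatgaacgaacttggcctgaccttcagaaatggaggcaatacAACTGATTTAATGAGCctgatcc
Snord4a: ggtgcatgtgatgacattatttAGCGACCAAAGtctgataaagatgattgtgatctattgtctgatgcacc
Snord82: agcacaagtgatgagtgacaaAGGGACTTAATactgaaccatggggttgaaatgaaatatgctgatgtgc
The stretches of Snord7 and Snord8 are 11 bases long and that of Snord67 10 bases. Counted 5 bases upstream of the box, the rule for the methylated base, they point to positions 47 (A), 53 (A) and 60 (C) of the annotated mouse U6 RNA. None of the other 56 members with a sequence had a U6 stretch of at least 10 bases in that place. For 18S rRNA, 16 of the 21 members known as its guides had such a stretch and 1 of the 38 other members did, Snord90. The stretch of Snord57 is 16 bases long, those of Snord4a and Snord82 11 bases, and that of Snord96a 9 bases. For 5.8S rRNA the letters did not separate guides from other members: neither guide had a stretch of at least 10 bases in that place, Snord71 had none of at least 8, and Snord15b, a 28S guide, also had 9. A match is a description of the letters and not a measured contact. Of the 59 members with a GENCODE sequence, 57 had CTGA within the last 20 bases and 35 had ATGATGA or GTGATGA within the first 20. Snord116 had no GENCODE model under that symbol.

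By their known targets, 20 of the 60 guide methylation of 18S rRNA, 21 of 28S rRNA, 2 of 5.8S rRNA (Snord71 and Snord96a) and 3 of U6 (Snord7, Snord8 and Snord67). Snord68 guides both large rRNAs, Snord118 is the U8 snoRNA of pre-rRNA cleavage, 8 are orphans with no known rRNA or snRNA target, and 4 were not assigned. In the GENCODE M21 models 57 of the 60 lie in an intron of another gene on the same strand. They fall into 43 host genes, and 44 of the 57 have a protein-coding host. Ribosomal protein genes are the largest group of hosts, with 14 members in 11 genes. Other hosts take part in translation or in the nucleolus, such as Eef2 (Snord37), Eif4g1 (Snord66), Ncl (Snord82), Rack1 (Snord95 and Snord96a) and Gnl3 (Snord19 and Snord69). Snord57 lies in intron 10 of Nop56, and Snord70 and Snord11 lie in introns 2 and 9 of Nop58, the genes of 2 core proteins of the same particle.

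Values of single libraries are given in the order of replicates 1, 2 and 3 throughout. Of all gene counts, 9.39%, 9.61% and 8.84% fell on the members in the inputs and 8.08%, 10.8% and 8.39% in the pulldowns. The means were 9.28% ± 0.396 and 9.08% ± 1.48 (SD, n = 3 each), and the 3 pulldown values lay on both sides of the input range. Pulldown 2 was the highest and pulldown 1 the lowest of all 6. Exact (Clopper-Pearson) 95% intervals ran from 8.02% to 8.14% in pulldown 1, the shallowest library, and cover counting error only, since PCR reads without molecular identifiers are not independent molecules. In the same libraries the 14 other box C/D snoRNAs took 68.3% ± 5.08 and 66.8% ± 4.58. Between 769570 (pulldown 1) and 6946284 (pulldown 2) reads were assigned to genes, and the TMM factors, which scale each library to the bulk of its genes, from 0.609 in pulldown 2 to 1.95 in pulldown 1. Of 9 fibroblast markers all had reads and 8 were tested. Epithelial markers had 0 reads, and those of leukocytes and adipocytes had at most 1 read in a library.

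Levels spanned more than 3 orders of magnitude. They are given in CPM, read counts scaled by the total gene count of the library and its TMM factor, which was computed over all genes. Of the 48 tested members, 22 had a mean input level of at least 1000 CPM, 14 lay between 100 and 1000, 10 between 10 and 100, and 2 below 10. Counts were concentrated in the upper part of this range. The top 5 by input level took 47.1% ± 0.799 of all member counts in input and 46.9% ± 2.24 in the pulldown, the top 10 took 65.6% ± 0.495 and 63.5% ± 1.68, and the top 20 took 91.0% ± 0.813 and 90.7% ± 0.518 (SD, n = 3 each).

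**Figure D1:**
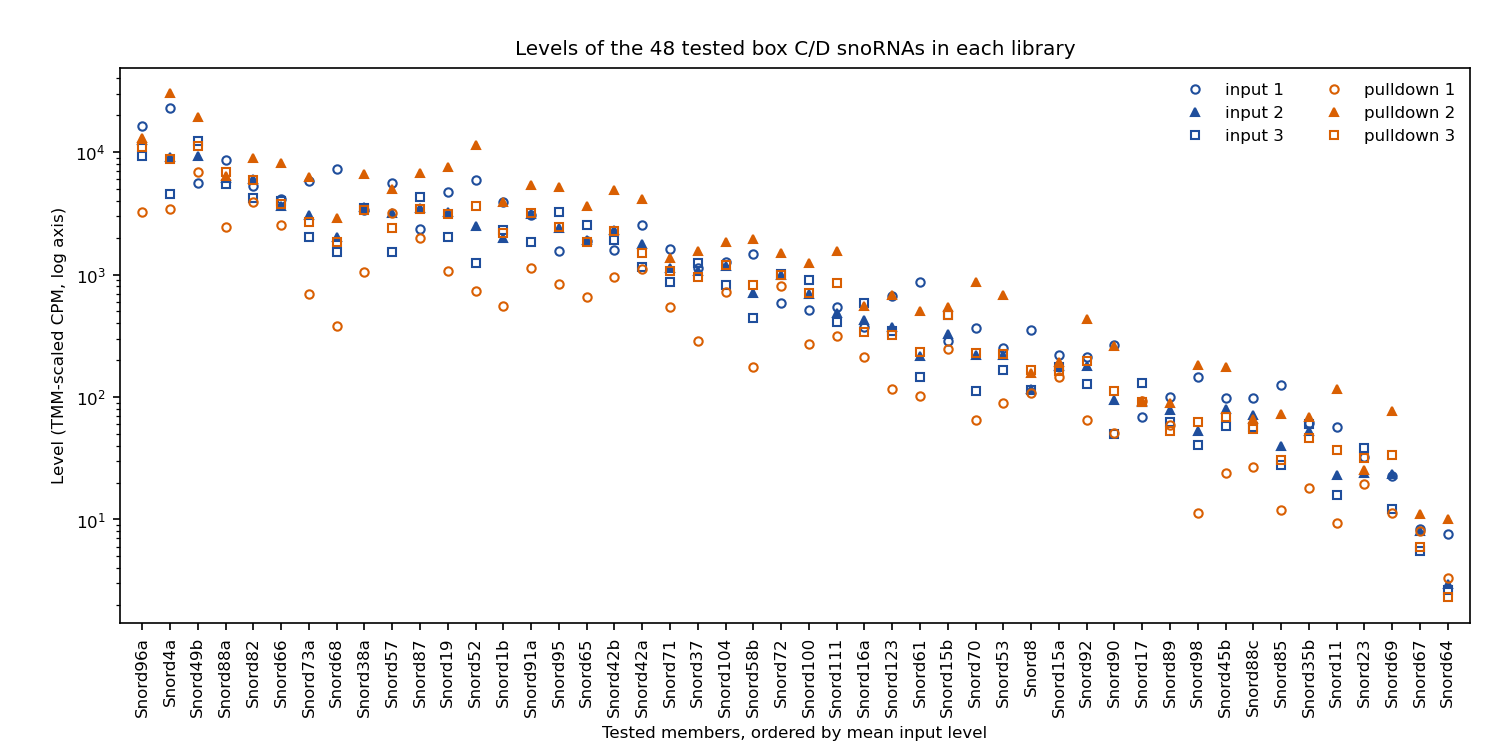
Level of each of the 48 tested box C/D snoRNAs (TMM-scaled CPM, log axis) in the 3 input libraries (blue) and the 3 pulldown libraries (orange), ordered by mean input level from Snord96a to Snord64. Circles, triangles and squares are replicates 1, 2 and 3; pulldown 1 is the lowest point for 40 members and pulldown 2 the highest for 33.

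Snord96a, a guide of 5.8S rRNA from intron 2 of Rack1, had the highest mean, with 16356, 12508 and 9271 CPM in the inputs and 3267, 13130 and 10961 CPM in the pulldowns. Pulldown 1 was low and the other 2 pulldowns lay within the input range. Snord4a, an 18S guide from intron 2 of Rpl23a, had 23117, 9138 and 4521 CPM in the inputs and 3438, 30583 and 8829 CPM in the pulldowns. Its inputs alone differed by more than the group means, which were 12258 ± 9683 and 14283 ± 14371 CPM (SD, n = 3 each). Snord49b, a 28S guide from the noncoding gene 2410006H16Rik, had 5638, 9335 and 12290 CPM in the inputs and 6950, 19411 and 11194 CPM in the pulldowns, again with overlapping groups. Snord88a, a 28S guide, had 6732 ± 1668 CPM in the inputs and 5208 ± 2398 CPM in the pulldowns, and Snord82, the 18S guide of Ncl, had 5173 ± 910 and 6241 ± 2546 CPM. The next 5 by input level were Snord66 (3932 ± 294 CPM in input), Snord73a (3629 ± 1928), Snord68 (3600 ± 3157), Snord38a (3489 ± 102) and Snord57 (3430 ± 2034). Snord66, an 18S guide, had 2530, 8097 and 3748 CPM in the pulldowns, Snord73a, a 28S guide, had 696, 6260 and 2691 CPM, and Snord57, an 18S guide, had 3161, 4969 and 2381 CPM. Within this order, neighbours such as these 5 did not differ beyond their spread. Snord38a, a 28S guide, was the steadiest of them in input, at 3372, 3562 and 3532 CPM, yet had 1041, 6622 and 3394 CPM in the pulldowns.

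Per 100 nucleotides of the GENCODE model, Snord4a (17265 CPM in input), Snord96a (15694) and Snord49b (12622) led the tested members, and Snord64 (6.61) and Snord67 (6.57) were the lowest of them. The first 5 places were the same with the shorter RefSeq models. Models matter for such values: the median length was 80 nucleotides in GENCODE and 68 in RefSeq, and 30 members were at least 10 bases shorter in RefSeq. The U6 guides were low throughout. Snord8, in intron 27 of Chd8, had 352, 117 and 113 CPM in the inputs and 107, 159 and 166 CPM in the pulldowns. Snord67, in intron 31 of Ckap5, had 8.317, 7.995 and 5.568 CPM in the inputs and 7.998, 11.12 and 5.952 CPM in the pulldowns. Both groups overlapped for both, and Snord7, the third U6 guide, had no read.

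Position in the intron went with level. Of the 57 intronic members, 32 lie 50 to 110 bases before the next exon, and the median distance is 92 bases. The 27 tested ones in this window had a median of 2803 CPM per 100 nucleotides in input, against 190 for the 20 tested ones that lie farther from the exon. The ranges overlapped widely: Snord69, 59 bases from its exon, had 24.3 CPM per 100 nucleotides, and Snord96a, 160 bases from it, had 15694. Across the 47 tested intronic members, Spearman's rho of level against distance was -0.29. This is a description across genes that share libraries, hosts and a range of lengths.

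No member was called higher or lower in the pulldown. With edgeR's quasi-likelihood test and Benjamini-Hochberg adjustment over all 1852 tested genes, 0 of 48 passed in either direction, where 0.054% of all genes were called, 0.0% higher and 0.054% lower. At an unadjusted p under 0.05, 0 of 48 passed (5.62% of all genes did, 2.27% higher and 3.35% lower). For 0 of 48 did the 3 pulldown levels lie wholly above or below the 3 input levels, against 10.4% of all genes, 4.27% above and 6.16% below. DESeq2 and limma-voom also called 0. The log2 folds were positive for 29 and negative for 19 members, with a median of 0.15 beside -0.0039 for all tested genes. The 95% interval of a single member had a median half-width of 1.33 on the log2 scale, and ran from 0.68 to 1.85, which sets the size of change that could be seen in a single member. The sign of the median rested on single libraries: it was -0.56 without pulldown 2, where 3 of 48 folds were positive, and 0.50 without pulldown 1, where 36 were.

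**Figure D2:**
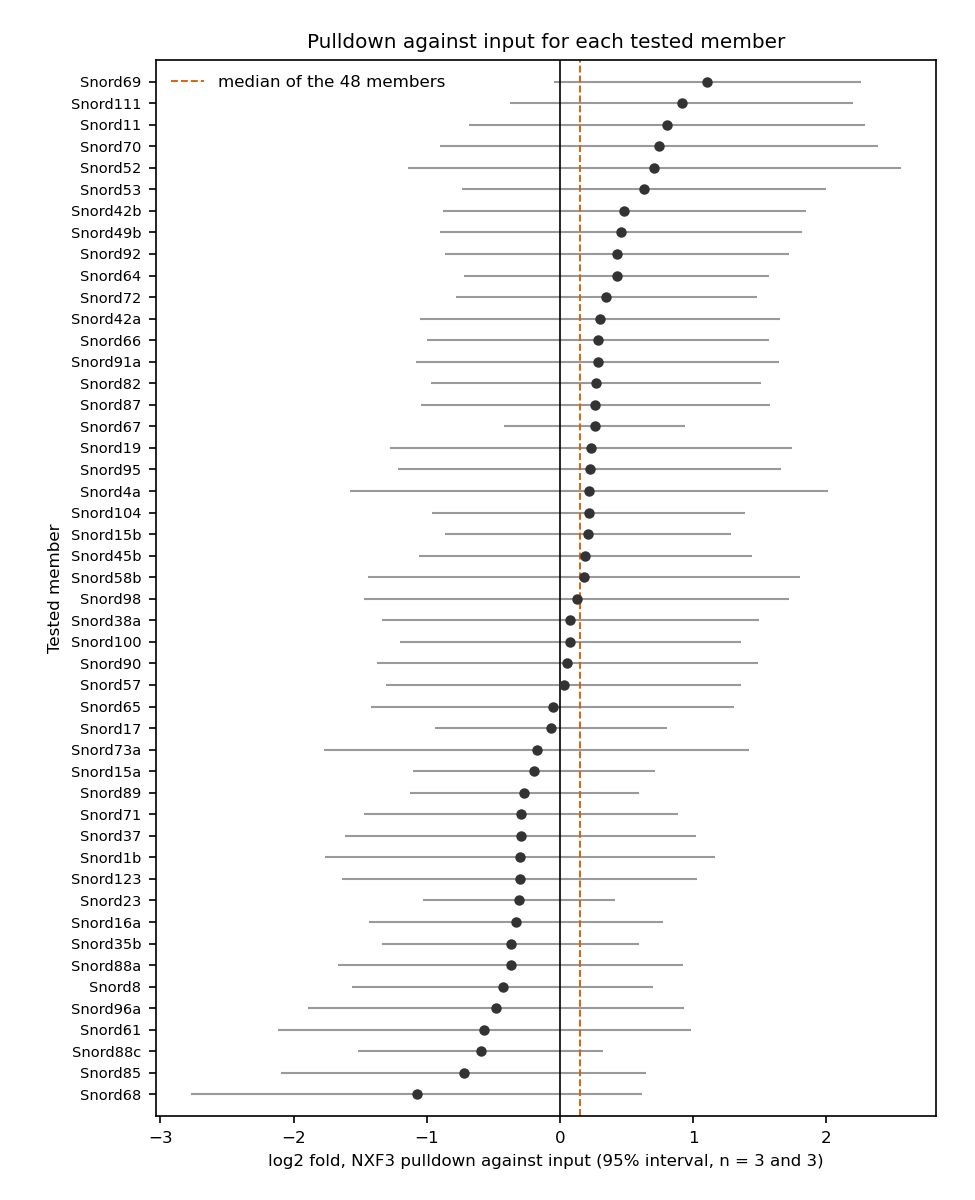
Log2 fold of NXF3 pulldown against input for each of the 48 tested members (edgeR, TMM; points) with its 95% interval (bars, n = 3 and 3). The folds run from -1.08 (Snord68) to 1.11 (Snord69), every interval includes 0, and the dashed line is the median of the members, 0.15.

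By target, folds of both signs occurred in each large class. Of 15 tested guides of 18S rRNA, 12 had positive folds (median 0.22), and of 19 tested guides of 28S rRNA, 12 did (median 0.21). The 5 tested orphans (Snord23, Snord64, Snord85, Snord89 and Snord123) had 1 positive fold and a median of -0.30. Both guides of 5.8S rRNA had negative folds, -0.48 (SE 0.66) for Snord96a and -0.29 (SE 0.55) for Snord71, which had 1612, 1137 and 874 CPM in the inputs and 544, 1354 and 1061 CPM in the pulldowns. The U6 guides had -0.43 (SE 0.52) for Snord8 and 0.26 (SE 0.32) for Snord67. None of these passed, the differences between classes were not tested, and the adjusted p was at least 0.825 for every member (edgeR quasi-likelihood test).

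The 6 largest positive folds belonged to Snord69, Snord111, Snord11, Snord70, Snord52 and Snord53. Snord69, a 28S guide from Gnl3, had 22.5, 23.5 and 12.2 CPM in the inputs and 11.3, 76.7 and 33.7 CPM in the pulldowns. Pulldowns 2 and 3 were above all inputs and pulldown 1, with 17 reads, below all of them. Pulldown 1 lay among the inputs without the TMM factor. Snord69 then had 17.0, 24.9 and 14.0 CPM in the inputs and 22.1, 46.6 and 31.1 CPM in the pulldowns. Its log2 fold of 1.11 (SE 0.54) was the nearest to the threshold, with a 95% interval from -0.05 to 2.26 and an adjusted p of 0.825 by edgeR, and it was 1.55 without pulldown 1 (adjusted p = 0.128, edgeR) and 0.26 without pulldown 2. Snord111, a 28S guide from Sf3b3, a splicing factor gene, had 542, 490 and 410 CPM in the inputs and 317, 1551 and 851 CPM in the pulldowns, with a log2 fold of 0.92 (SE 0.60), or 0.26 without pulldown 2. It showed the same order, pulldown 1 lowest and pulldown 2 highest. Snord11 and Snord70, both 18S guides from Nop58, had log2 folds of 0.81 (SE 0.69) and 0.74 (SE 0.76). Snord11 had 56.5, 23.0 and 15.8 CPM in the inputs and 9.33, 117 and 37.0 CPM in the pulldowns. Snord70 had 65.3, 877 and 231 CPM in the pulldowns against 368, 222 and 113 CPM in the inputs. Snord52, a 28S guide, had 733, 11370 and 3652 CPM in the pulldowns against 5897, 2497 and 1235 CPM in input (log2 fold 0.71, SE 0.86). Snord53, whose target was not assigned, had 252, 222 and 167 CPM in the inputs and 89.3, 677 and 224 CPM in the pulldowns (log2 fold 0.63, SE 0.63). For all 6, pulldown 2 was the highest library, and without it the folds of Snord11, Snord70, Snord52 and Snord53 were negative, from -0.68 to -0.42.

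At the other end stood Snord68, Snord85, Snord88c, Snord61, Snord96a and Snord8. Snord68, from Rpl13, had 7234, 2030 and 1537 CPM in the inputs and 378, 2881 and 1863 CPM in the pulldowns, for which edgeR gave -1.08 as the log2 fold (95% interval -2.77 to 0.61, SE 0.78, adjusted p = 0.947). Input 1 was the highest and pulldown 1 the lowest library, and the other 4 overlapped. Without input 1 its log2 fold was -0.035. Snord85, an orphan, had 126, 39.5 and 27.6 CPM in the inputs and 11.997, 72.4 and 30.4 CPM in the pulldowns (log2 fold -0.72, SE 0.64, and 0.26 without input 1). Snord61, an 18S guide from Rbmx, likewise had its highest value in input 1, at 873 CPM, against 101 to 500 CPM in the pulldowns (log2 fold -0.57, SE 0.72, and 0.64 without input 1). Snord88c had 97.7, 70.9 and 56.8 CPM in the inputs and 26.7, 66.7 and 54.6 CPM in the pulldowns (log2 fold -0.60, SE 0.43), with pulldown 1 apart from the rest.

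After TMM scaling, the same libraries stood apart in most members. Pulldown 1 was the lowest of the 6 libraries for 40 of the 48 tested members, pulldown 2 was the highest for 33, and input 1 was the highest for 12. Of all tested genes, 24.5% were lowest in pulldown 1 and 14.3% highest in pulldown 2. Pulldown 2 exceeded pulldown 1 in 47 of 48 members, by a median of 4.83-fold. The median was 3.20-fold for the 14 other box C/D snoRNAs and 0.994-fold for all tested genes. For 23 tested box H/ACA snoRNAs, the pseudouridylation guides, it was 1.77-fold. The size of these ratios depends on the scaling, since the TMM factors of the 2 libraries differ by more than 3-fold, while the order of the groups does not. In CPM without the TMM factor, the median ratio was 1.51-fold for the members (30 of 48 above 1), 1.00-fold for the other box C/D snoRNAs, 0.554-fold for box H/ACA snoRNAs and 0.310-fold for all tested genes. Differences between these groups were not tested. Without TMM, the pattern over libraries was weaker: pulldown 1 was the lowest for 17 members and the highest for 10. Pulldown 2 was then the highest for 15 and the lowest for 6. The coefficient of variation over the 3 pulldowns had a median of 70.9% after TMM and 33.1% without it, against 28.3% and 32.2% over the 3 inputs. The depth of pulldown 1, the shallowest library, moves with these values, and its part in them was not tested.

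**Figure D3:**
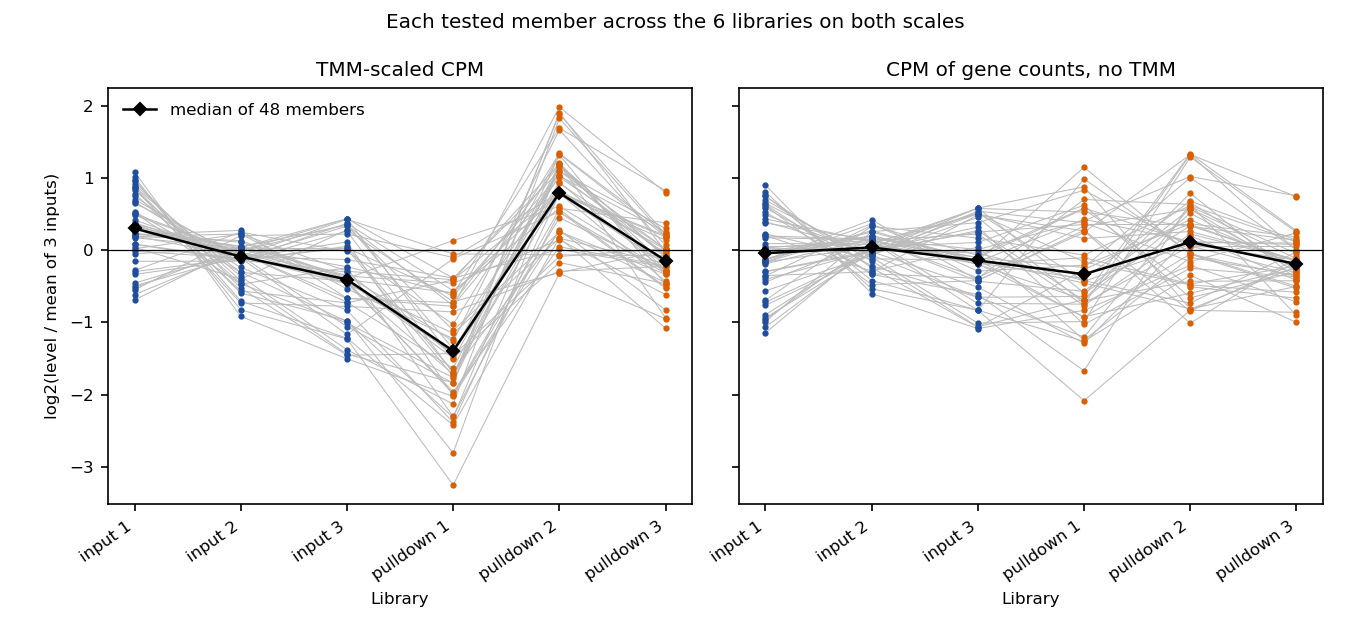
Level of each of the 48 tested members in each library as log2 of its ratio to the mean of the 3 inputs, after TMM scaling (left) and in CPM of gene counts without TMM (right). Grey lines join 1 member, diamonds are the median; on the left the medians of pulldowns 1 and 2 stand far apart, on the right they lie close to the inputs.

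Without TMM, 5 members had groups that did not overlap, 1 above and 4 below (2.08% and 8.33% of the 48). Over all 1852 genes 0.702% were above and 1.94% below on this scale, and 4.27% and 6.16% with TMM. The all-gene share without TMM is not a like background for the members. On this scale the median coefficient of variation over the pulldowns was 62.1% for all tested genes and 33.1% for the members. An excess of members was not tested. The scale was added after the data were seen. Snord111 had 408, 520 and 468 plain CPM in the inputs and 617, 944 and 785 in the pulldown, a ratio of means of 1.68. Snord96a had 12328, 13286 and 10578 in input and 6369, 7990 and 10114 in the pulldown, a ratio of 0.676. Snord88c had 73.7, 75.4 and 64.8 in input and 52.0, 40.6 and 50.3 in the pulldown (ratio 0.668). Snord35b had 46.2, 55.7 and 68.6 against 35.1, 42.2 and 42.4 (ratio 0.702). Snord68 was lower by the narrowest margin, with 1754 in input 3 against 1753 in pulldown 2. In edgeR with total-count scaling none of them passed (adjusted p at least 0.9999), and Snord68 alone, at a log2 fold of -1.15, had an unadjusted p under the threshold of 0.05.

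The ratio of pulldown 2 to pulldown 1 varied among members with their length and base composition, and the order of members by this ratio does not depend on the scaling. Ratios tended to be higher in short members, with wide overlap. After TMM, the 23 members of at most 75 nucleotides had a median of 5.55-fold (1.57 to 16.1). The 25 longer ones had 3.43-fold (0.991 to 13.4). Snord98 (65 nucleotides) had 16.1-fold, Snord52 (66) 15.5-fold and Snord58b (66) 11.2-fold, but Snord42a (65) 3.77-fold and Snord57 (72) 1.57-fold. Snord17 (238 nucleotides, the longest) had 0.991-fold, Snord15a (148) 1.32-fold and Snord15b (145) 2.21-fold, but Snord70 (87) 13.4-fold and Snord11 (84) 12.6-fold. Some of the largest ratios rest on few reads in pulldown 1, 17 for Snord98 and 14 for Snord11, while Snord52 had 1100 there. Over the 48 members Spearman's rho was -0.52 with GENCODE length, -0.57 with RefSeq length and -0.55 with GC content. The 27 members with at most 45% GC had a median ratio of 5.55-fold, against 2.58-fold for the 21 others. These points share 2 libraries, and length and base composition were not separated. For the log2 fold of pulldown against input, rho was -0.21 with GENCODE length, -0.38 with RefSeq length and -0.35 with GC content.

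**Figure D4:**
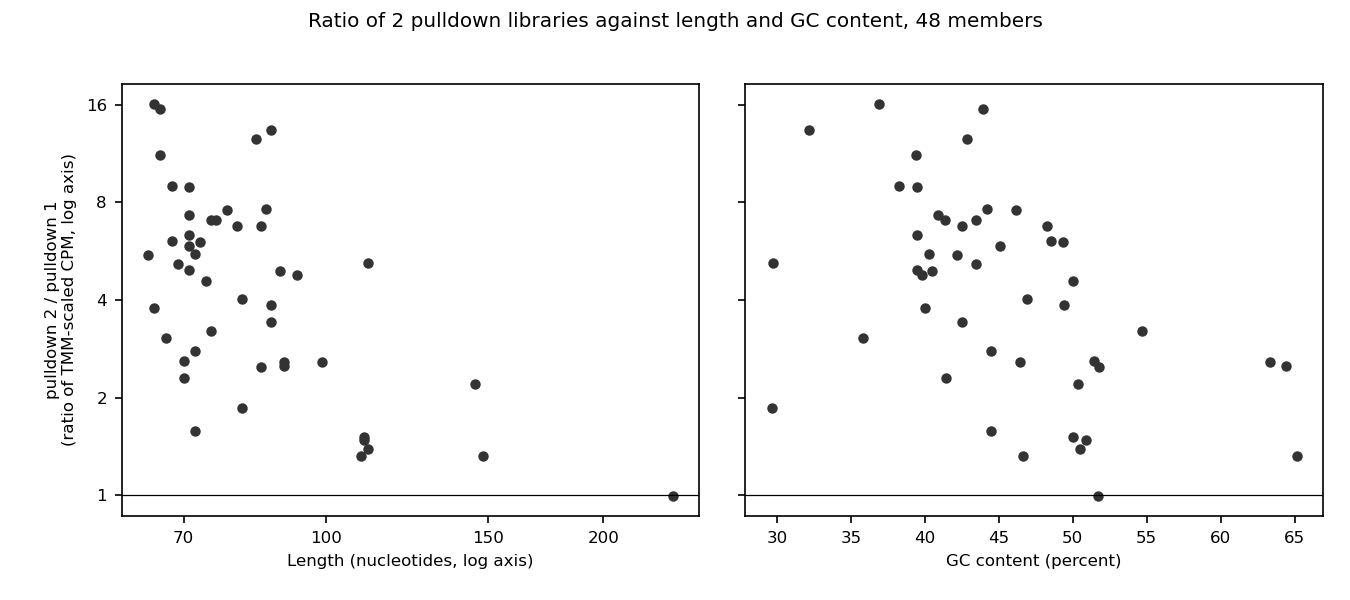
Ratio of the level in pulldown 2 to that in pulldown 1 (TMM-scaled CPM, log axis) against GENCODE length (left, log axis) and GC content (right) for the 48 tested members. Ratios run from 0.991 for Snord17, the longest member, to 16.1 for Snord98, which had 17 reads in pulldown 1. The ratios tend to be lower for long and GC-rich members, with wide overlap.

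Members cut from the same host transcript offer a comparison inside a library, in which the scaling drops out. Among tested members there were 10 such pairs in 8 host genes, and in 9 of them the same member was higher in all 6 libraries. Per nucleotide, the 2 members of a pair differed in input by 1.03-fold to 178-fold, with a median of 4.76-fold. These pairs include Snord88a and Snord88c (90.1-fold), which are 94.4% identical, so the split of reads between them is uncertain. The widest pair lies in Gnl3, whose sequences follow, with the box C and box D letters in capitals where ATGATGA or GTGATGA, and the last CTGA, were found near the ends. They are printed because levels of 2 guides from 1 transcript differed by over 2 orders of magnitude.
Snord19: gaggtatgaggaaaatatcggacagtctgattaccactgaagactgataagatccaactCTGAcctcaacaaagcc
Snord69: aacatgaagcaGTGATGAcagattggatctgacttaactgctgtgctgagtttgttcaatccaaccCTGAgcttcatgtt
Snord19, an 18S guide, lies in intron 6 and Snord69, a 28S guide, in intron 9. The log2 ratio of Snord19 to Snord69 was 7.72, 7.12 and 7.37 in the inputs and 6.57, 6.64 and 6.53 in the pulldowns. The ratio was lower in every pulldown than in every input, by 0.82 on average. Snord49b and Snord65 of 2410006H16Rik went the other way, with log2 ratios of 1.57, 2.30 and 2.28 in input and 3.42, 2.42 and 2.60 in the pulldown. These 2 of 10 pairs had groups that did not overlap, beside 11.5% of all 1128 pairs of tested members. The other 8 overlapped, and no test was made over pairs, which share libraries and in Rpl23a also members.

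**Figure D5:**
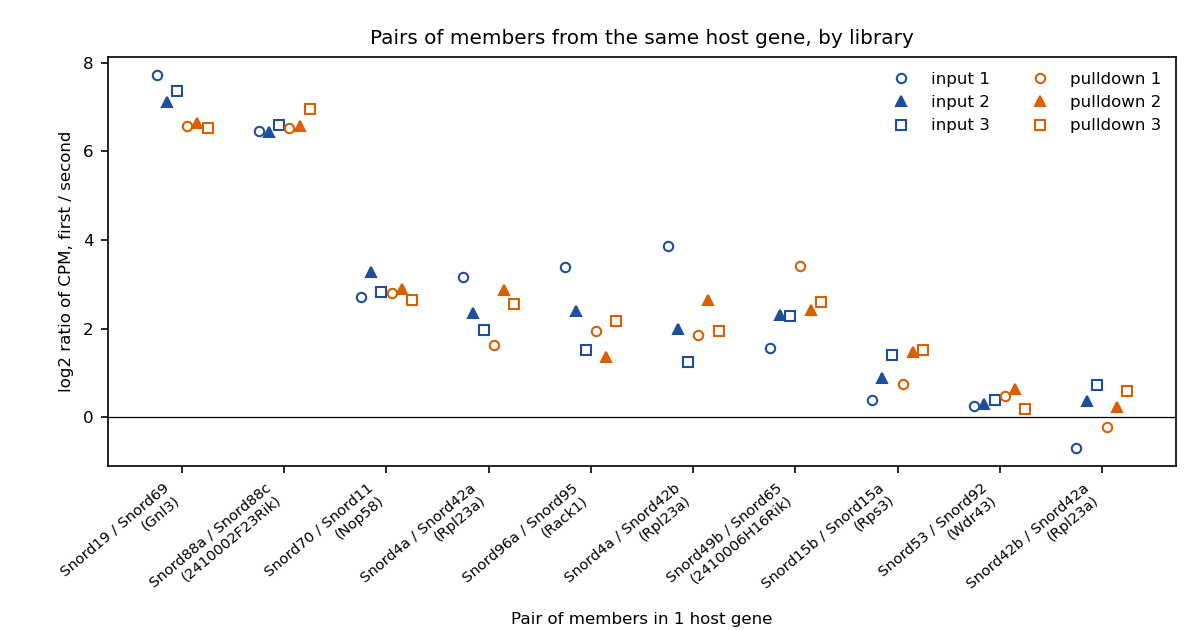
Log2 ratio of the levels of 2 members of 1 host gene in each library, for the 10 pairs of tested members, ordered by their mean input ratio. Blue symbols are inputs and orange symbols pulldowns (circle, triangle and square for replicates 1, 2 and 3); the groups are apart for Snord19 / Snord69 and Snord49b / Snord65.

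In Rpl23a, Snord4a stood above Snord42b and Snord42a, all 18S guides, by 5.003-fold and 5.178-fold per nucleotide in input. Snord42b and Snord42a themselves differed by 1.03-fold, with inputs on both sides of 0 on the log2 scale. In Rack1, Snord96a exceeded Snord95, a 28S guide, by 4.51-fold in input and 2.98-fold in the pulldown. In Nop58, Snord70 exceeded Snord11 by 7.38-fold and 6.64-fold. In Rps3, Snord15b exceeded Snord15a by 1.89-fold and 2.42-fold, and in Wdr43, Snord53 exceeded Snord92 by 1.35-fold and 1.46-fold.

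Near-identical copies make some single values uncertain, since the sources used here do not say how reads that fit several genes were handled. The pairs below are shown with the letters that differ between the copies in capitals.
Snord88a: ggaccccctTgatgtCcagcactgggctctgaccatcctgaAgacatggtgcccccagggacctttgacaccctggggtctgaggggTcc
Snord88c: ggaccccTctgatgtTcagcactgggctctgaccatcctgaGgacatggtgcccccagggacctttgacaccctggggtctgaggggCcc
Snord1b: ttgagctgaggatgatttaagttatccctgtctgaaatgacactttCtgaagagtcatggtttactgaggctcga
Snord1c: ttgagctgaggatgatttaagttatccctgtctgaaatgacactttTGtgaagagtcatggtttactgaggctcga
Snord14c: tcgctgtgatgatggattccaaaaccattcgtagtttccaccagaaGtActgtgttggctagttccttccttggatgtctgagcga
Snord14d: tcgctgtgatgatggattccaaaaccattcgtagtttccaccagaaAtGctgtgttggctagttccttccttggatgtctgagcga
Snord88a and Snord88c, in neighbouring introns of 2410002F23Rik, are 94.4% identical and had 112765 and 1166 reads over all libraries. Snord1b and Snord1c of 1810032O08Rik are 97.4% identical, with 2 edits between them, and had 49808 and 15 reads. Snord14c and Snord14d of Hspa8, at 97.7%, had no read. Among tested members, Snord58b (94.3%) and Snord95 (91.2%) also have a GENCODE copy at 90% identity or more that the tables do not list.

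The 10 members without a read were Snord1a, Snord7, Snord14a, Snord14c, Snord14d, Snord45c, Snord93, Snord116, Snord116l1 and Snord116l2, and Snord118 had 1 read, in pulldown 1. A count of 0 allows up to 3 counts, which is 0.668 to 2.00 CPM depending on the library, for counting error only. Snord116 RNAs are brain-expressed orphans from the Snhg14 transcript, and Snord116l1 has 69 GENCODE copies at 90% identity or more. Snord93 is 98.6% identical to the annotated Mir3096, which had at most 1 read in a library. In GENCODE M21, 6 of the 11 untested members with a model overlap an exon of another gene on the same strand (a retained-intron or other noncoding exon, or for Snord45c a protein-coding one). So do 20 of the 48 tested ones, among them Snord96a and Snord88a. The sources used here do not name the annotation behind the deposited counts, and the part of such overlaps in the counts of 0 was not tested.

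Reads of the host genes themselves were few. The tables list 41 host genes. EdgeR tested 23 of them and called 0 in either direction, while 1 was under 0.05 before adjustment, beside 5.62% of all tested genes. Their median log2 fold was 0.03. Gnl3, host of Snord19 and Snord69, had 2.43, 3.00 and 3.34 CPM in the inputs and 8.66, 5.68 and 2.65 CPM in the pulldowns. Gnb2l1, the symbol of Rack1 in the tables, had 37.4, 53.0 and 47.7 CPM in the inputs and 42.0, 23.7 and 14.5 CPM in the pulldowns. The core proteins Nop56 and Nop58 had log2 folds of -0.25 and -0.15, and none of 9 assembly factors had enough counts to test. Of the transport and export factors 4 were tested and 0 called, with 1 in each direction under 0.05 before adjustment. Over all tested genes, 2.27% were under 0.05 and higher, and 3.35% under 0.05 and lower. Nolc1, a nucleolar chaperone of snoRNPs, had 2.77, 2.00 and 2.45 CPM in the inputs and 2.67, 6.15 and 3.97 CPM in the pulldowns (log2 fold 0.92, adjusted p = 0.825, edgeR). As for Gnl3, such levels rest on few reads: 3 counts equal 1.50 CPM in input 2 and 2.00 CPM in pulldown 1. Nxf1 had 16.63, 17.99 and 18.04 CPM in the inputs and 13.33, 9.70 and 11.24 CPM in the pulldowns (log2 fold -0.65, adjusted p = 0.825, edgeR). Every pulldown lay below every input, as it did for 6.16% of all tested genes. Nxf3, the gene of the bait, had 790 ± 329 CPM in the inputs and 1140 ± 380 CPM in the pulldowns (SD, n = 3 each). Host and factor mRNAs are seen only as fragments in libraries of this size range.

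Outside the members, the tested genes whose log2 CPM followed the mean of the members most closely over the 6 libraries were Snord43 (r = 0.98), Itpr3 (r = 0.98) and Snord83b (r = 0.98). Snord43 and Snord83b are box C/D snoRNAs, and Itpr3 encodes a calcium channel of the endoplasmic reticulum. These r values rest on 6 libraries that differ in TMM factor.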

How the data were processed

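Small RNA libraries of transfected NIH 3T3 cells, 3 of input and 3 of NXF3 pulldown RNA, were analysed from 1 table per library. Each table, as deposited by the authors, holds whole-number counts of reads for each gene, with no scaling. The submitters' processing notes list Bowtie, Partek and the build mm9, and the names of the deposited tables name HTSeq-count and removal of rRNA reads. The sources used here state no version, annotation, strand setting or handling of reads with several alignments. The 5 summary lines of the counter were left out of library sizes. A gene was assigned to 22.2% to 35.6% of a library's reads.

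All genes were fitted together with edgeR 4.0.16 in R 4.3.3: TMM, filterByExpr at a minimum count of 10 (1852 genes), a quasi-likelihood F test between pulldown and input, Benjamini-Hochberg adjustment and a threshold of 0.05. SE and 95% intervals came from the F statistic. In data simulated from the real means, 67 of 71 genes changed by 2 log2 units and 71 of 71 changed by 4 were recovered (1344 genes that passed the filter), and 2 unchanged genes were called. The simulation took the dispersion trend over all genes and no deviations of single libraries. It therefore does not give the recovery for the members, whose median SE was 0.61 beside 0.37 for all tested genes. DESeq2 1.42.0, limma 3.58.1 (voom), other scalings and filters, the replicate block and leaving out single libraries were alternatives. The labels say that the libraries come from independent experiments but not which share one, so p-values measure the spread between these libraries. Over all tested genes, same-numbered inputs and pulldowns deviated from their group means with correlations of 0.03, 0.07 and 0.14, and differently numbered ones with -0.10 to 0.03. Over the tested members the same-numbered correlations were -0.39, -0.05 and 0.08. These values do not settle whether the numbers mark pairs. As the all-gene ones were not all over 0.1, the main fit did not pair them, and the replicate block was an alternative.

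Sequences, host genes, introns and lengths came from GENCODE M21 by symbol, with RefSeq lengths beside them. That build is not mm9, so no coordinates are printed. Host genes were read from the GENCODE models in place of the list planned for them. Target classes are background knowledge. The rule for named members took the 10 most abundant, the 6 largest folds in each direction, tested guides of U6 or 5.8S rRNA, members with groups apart, and, as ratios within a pair, members of 1 host gene and near copies. The members and lists were chosen with earlier results of these data known.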

Additional observations from a re-analysis of the deposited data

How the results depend on the processing

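No member was called in either direction under any of the 14 alternatives, whose lowest adjusted p for a member was 0.128 (edgeR, without pulldown 1). The median log2 fold of the members, 0.15, was 0.0026 with total-count scaling, -0.17 with limma-voom and -0.019 with the replicate block, and ran from -0.56 to 0.50 when single libraries were left out; the all-gene median stayed between -0.03 and 0.08 in these settings. With the replicate block 0 members were called, and the lowest adjusted p of a member was 0.832 (edgeR). The share of gene counts was 61.7% in input and 64.5% in the pulldown, a difference of 2.79 points, once the 14 other box C/D snoRNAs and Gas5 were left out of the total, and 2.39% and 2.59% of all reads in the tables. Leaving out single libraries gave shares of 9.11% to 9.50% and 8.24% to 9.58%, and differences of -1.04 to 0.31 points around -0.19. Without TMM, 1 member was wholly above and 4 were wholly below the inputs, where 0.702% and 1.94% of all tested genes were. With TMM the counts were 0 and 0, where 4.27% and 6.16% of all tested genes were. The scale without TMM was chosen after seeing the data, and on it the all-gene share is not a like background for the members.

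For 30 named members, 13 of 239 log2 folds changed sign under another scaling, filter, tool or design: with total-count scaling Snord38a (-0.17) and Snord95 (-0.083); with a mean of at least 50 counts Snord38a (-0.020); with limma-voom Snord19 (-0.18), Snord38a (-0.35), Snord4a (-0.12), Snord53 (-0.0062), Snord70 (-0.082), Snord92 (-0.15) and Snord95 (-0.13); and with the replicate block Snord19 (-0.021), Snord38a (-0.27) and Snord95 (-0.084). The cause was not tested. Leaving out single libraries changed the sign of 30 of 180 values, in 23 members. Their ranges were Snord11 -0.42 to 1.56, Snord15b -0.028 to 0.49, Snord19 -0.69 to 0.70, Snord38a -0.67 to 0.54, Snord42a -0.51 to 0.66, Snord42b -0.28 to 0.91, Snord49b -0.013 to 0.77, Snord4a -1.02 to 1.10, Snord52 -0.58 to 1.53, Snord53 -0.46 to 1.09, Snord57 -0.32 to 0.60, Snord61 -1.33 to 0.64, Snord65 -0.77 to 0.38, Snord66 -0.34 to 0.61, Snord67 -0.088 to 0.49, Snord70 -0.68 to 1.27, Snord71 -0.61 to 0.0088, Snord73a -1.12 to 0.36, Snord8 -0.71 to 0.34, Snord82 -0.096 to 0.53, Snord85 -1.59 to 0.26, Snord92 -0.41 to 0.89 and Snord95 -0.57 to 0.67. The other 7 kept their sign but moved: Snord68 -1.71 to -0.035, Snord69 0.26 to 1.55, Snord111 0.26 to 1.33, Snord96a -0.86 to -0.069, Snord88a -0.61 to -0.026, Snord88c -0.89 to -0.30 and Snord15a -0.32 to -0.062. Depth limits what a count of 0 allows, up to 2.00 CPM in pulldown 1.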
